A study of Mus musculus with 24 samples.

Results

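The 541 genes described here lie on mouse chromosome 13. They are the rows of the count table whose exons are all placed on that chromosome, with a level of at least 1 CPM (counts-per-million) in 6 or more of 24 melanoma libraries, and they were chosen on measured levels so that single tumors with a shift of the whole chromosome, or of a stretch of it, could be looked for. The table holds 935 chromosome 13 genes, of which 54 replication-dependent histone genes of the Hist1 cluster were left out and 340 others stayed under the level filter, and 24421 genes in all, of which 15336 passed the same filter. The study asked how the amino acid at codon 61 of NRAS changes melanoma formation in mice. Every mouse was of the C57BL/6 strain and carried a melanocyte-specific, tamoxifen-inducible Cre transgene (Tyr::CreERT2) and a conditional Nras knock-in allele, both homozygous, with the Nras allele encoding histidine (TN61H/H), leucine (TN61L/L), lysine (TN61K/K) or arginine (TN61R/R) at that codon, with 6 tumors of each genotype. All mice received 20 mM 4-hydroxytamoxifen on the skin on postnatal days 1 and 2, all tumors arose spontaneously and were taken at the study endpoint, and tumors without mutant Nras were not analysed here. The methods also describe UVB irradiation of mice after the tamoxifen, which the labels of these tumors do not mention. Each library is bulk RNA of a whole tumor, depleted of ribosomal RNA by the protocol although the molecule label reads polyA RNA, in which fewer cells of a type and less RNA per cell cannot be told apart.

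A chromosome that is gained or lost in a tumor cell tends to carry the mRNA of most of its genes up or down together, by an amount that depends on the copy number and on the share of tumor cells that carry the change. If mRNA followed gene dose exactly, 3 copies in place of 2 in every cell would give a log2 shift of 0.58. Mouse chromosome 13 carries genes of several roles in pigment cells and tumors, among them Irf4 and Tfap2a, transcription factors of the melanocyte lineage, Lyst, a regulator of lysosome-related organelles and coat color, Tert, the catalytic subunit of telomerase, and Rasa1, a GTPase-activating protein of RAS. It also holds a dense cluster of Krüppel-type zinc finger genes, DNA-binding repressors that arose by tandem duplication and resemble each other in sequence.

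For each gene the shift of a tumor is its log2 CPM minus the mean log2 CPM of the 24 libraries, and the chromosome 13 median of a tumor is the median shift over the 541 genes. The 6 genes whose levels followed that median most closely, each left out of the median it was compared with, were Gpbp1, a protein that binds GC-rich promoters (Pearson r = 0.89 over the 24 tumors), Exoc3, a subunit of the exocyst (0.89), the zinc finger gene Zfp87 (0.89), Smim15, a small membrane protein (0.88), the zinc finger gene Zfp429 (0.88) and Gpx8, a peroxidase of the endoplasmic reticulum (0.85). These correlations span 24 libraries, of which 6 stood apart from the other 18 in many genes, as described below. Over those 18 alone r was 0.91 for Gpbp1, 0.76 for Exoc3, 0.79 for Zfp87, 0.63 for Smim15, 0.80 for Zfp429 and 0.49 for Gpx8. The part of library preparation and depth in the correlations was not tested. Over the 24 tumors the median r was 0.18 for the 541 genes, against -0.04 for 14292 genes of the other autosomes. Over 0.5 were 27.4% of the members, against 14.0% of the other genes. Zfp87 had no promoter entry, and the promoter sequences of the other 5 of the 6 are shown because these genes carry the common pattern. They are the 150 bases before the RefSeq start site (GRCm38.p6, the mm10 build used for the counts), on the strand given in brackets, at Gpbp1 chr13:111490128-111490277 (-), Exoc3 chr13:74208701-74208850 (-), Smim15 chr13:108044324-108044473 (+), Zfp429 chr13:67399768-67399917 (-), Gpx8 chr13:113046389-113046538 (-). Capitals mark matches on either strand to the GC box GGGCGG, the CRE core TGACGT and the ETS core CCGGAA, where neighboring or palindromic matches can overlap.
Gpbp1: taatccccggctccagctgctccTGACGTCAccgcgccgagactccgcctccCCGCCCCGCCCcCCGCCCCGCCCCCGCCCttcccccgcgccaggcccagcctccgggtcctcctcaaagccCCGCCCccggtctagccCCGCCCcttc
Exoc3: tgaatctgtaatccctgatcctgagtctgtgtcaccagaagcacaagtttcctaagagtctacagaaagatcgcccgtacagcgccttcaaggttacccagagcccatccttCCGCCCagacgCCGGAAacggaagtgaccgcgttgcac
Smim15: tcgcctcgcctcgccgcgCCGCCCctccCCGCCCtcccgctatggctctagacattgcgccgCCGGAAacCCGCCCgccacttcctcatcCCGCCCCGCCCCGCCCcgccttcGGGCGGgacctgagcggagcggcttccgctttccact
Zfp429: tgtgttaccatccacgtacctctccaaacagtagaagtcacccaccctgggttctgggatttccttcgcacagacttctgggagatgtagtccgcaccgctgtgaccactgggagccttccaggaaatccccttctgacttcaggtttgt
Gpx8: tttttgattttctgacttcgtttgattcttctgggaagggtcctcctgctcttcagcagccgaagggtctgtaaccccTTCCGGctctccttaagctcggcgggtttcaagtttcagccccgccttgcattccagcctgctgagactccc
The promoters of Gpbp1 and Smim15 are made largely of G and C, 78.7% and 75.3%, and hold 17 and 22 CG pairs and 7 GC boxes each. Those of Exoc3, Zfp429 and Gpx8 hold 54.0%, 53.3% and 54.0% G and C, and Zfp429 has no match to any of the 3 motifs. A promoter window was found for 456 of the 541 members. The GC box was in 48.5% of them, in 16.7% of 30 zinc finger members with a window, and in 28.6% of all 32851 RefSeq promoter windows of the same length. The ETS core was in 18.9% of the members and 30.0% of the zinc finger members, against 9.23% of all windows. The CRE core was in 8.55% and 20.0%, against 5.15%. The 32851 windows belong to 27025 genes of any level, whereas the members passed the level filter. The median GC content was 62.0% in the members' windows and 54.0% in all windows. Filtered genes of other chromosomes were not compared, so whether these shares are particular to chromosome 13 was not tested. None of the 3 motifs was in all 5 promoters. The transcripts of the same genes had a GC content between 40.2% for Smim15 and 46.9% for Exoc3, all below the median of 50.1% of the other autosomal genes.

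Library totals lay between 31946444 and 43773250 counted reads, of which the 541 members took 2.45% to 2.90%, and the counts of every pair of libraries of a genotype differed by far more than sampling noise (chi-square of at least 71.8 per degree of freedom). Of the markers of the labelled tissue, Sox10 was found in every library (110.3 to 1037 CPM) and Mitf too (21.0 to 58.4 CPM), whereas the pigment genes Tyr, Tyrp1, Dct and Mlana had median levels of 1.21, 3.82, 7.05 and 0.734 CPM. Fibroblast markers, led by the collagens, summed to 15704 to 41554 CPM, and leukocyte markers to 362 to 3009 CPM. The titles of the TN61R/R samples carry the letters K, L and P, as the study's cohorts of TN61R/R mice do, and the genotype label was used for them. The titles of TN61H/H replicates 4 and 5 share a number, so these 2 tumors may come from 1 mouse. The column names of the count table are written in 2 styles, and no source used here says what the style stands for. In 6 libraries (TN61H/H replicate 6, TN61L/L replicate 6, TN61K/K replicates 1, 3 and 6 and TN61R/R replicate 3) the name lacks the separator between genotype code and number that the other 18 carry. These 6 libraries stood apart from the 18 in many genes, so the values in the 18 alone are given beside the shifts and the counts of called genes.

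The chromosome 13 median was close to 0 in every genotype and differed more within genotypes than between them. TN61H/H tumors had 0.136, -0.010, -0.030, -0.059, -0.051 and 0.045 from replicate 1 to 6, and TN61L/L tumors had -0.095, 0.006, -0.032, 0.001, -0.117 and 0.071. TN61K/K tumors had 0.155, -0.026, 0.136, -0.119, -0.061 and 0.157, and TN61R/R tumors had -0.043, 0.006, 0.139, -0.067, -0.075 and -0.057. The 4 genotypes overlap throughout. Their means were 0.01 ± 0.07 in TN61H/H, -0.03 ± 0.07 in TN61L/L, 0.04 ± 0.12 in TN61K/K and -0.02 ± 0.08 in TN61R/R (SD, n = 6 each), and since the genes were chosen for this measure it was given no test. The widest spread was in TN61K/K, whose 3 high tumors are all among the 6 libraries without a separator. In the 18 libraries with a separator, centered on their own mean, the means came to 0.03 in TN61H/H, -0.004 in TN61L/L, -0.04 in TN61K/K and -0.002 in TN61R/R, so the sign in TN61K/K turned. Of 13 other settings, 7 gave at least 1 genotype mean of the other sign.

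**Figure D1:**
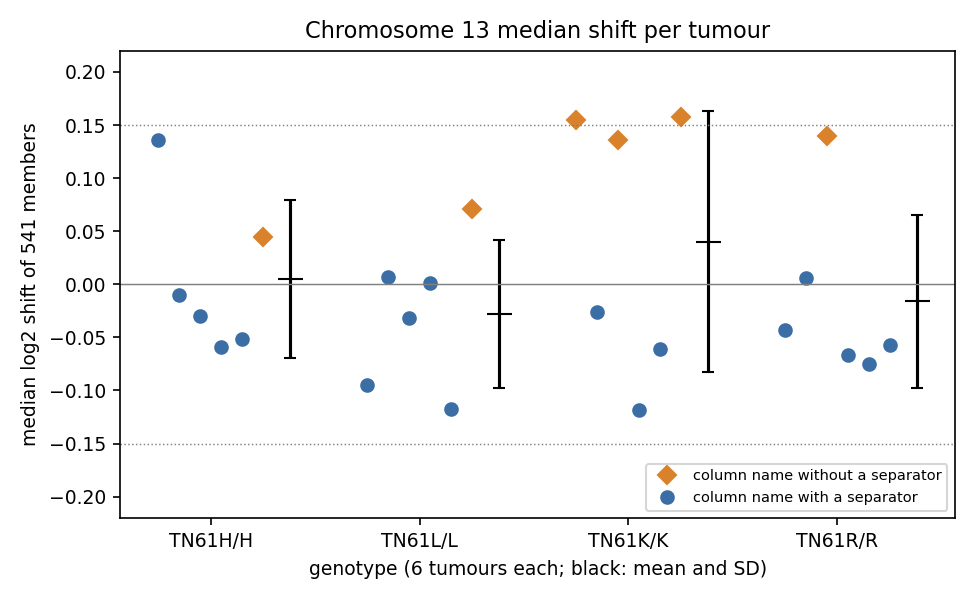
Median log2 shift of the 541 chromosome 13 genes (vertical axis) in each of 6 tumors per genotype (horizontal axis), with diamonds for libraries whose column name lacks a separator, circles for the others, black bars for mean and SD, and dotted lines at a shift of 0.15. The 6 diamonds lie between 0.045 and 0.157, and of the 18 circles only TN61H/H replicate 1 reaches that range at 0.136.

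The 6 libraries without a separator had medians of 0.045 to 0.157 (mean 0.117 ± 0.047 SD), and the 18 with a separator had -0.119 to 0.136 (mean -0.038 ± 0.058 SD). TN61H/H replicate 1 is the 1 library with a separator that lies as high, and the next of the 18 stands at 0.006. In the main setting the mean difference of 0.156 was the largest of the 19 autosomes, ahead of chromosome 1 at 0.095 and chromosome 3 at 0.093. It ranged from 0.144 to 0.180 when each of the 24 libraries was left out in turn, and it was 0.068 over 773 chromosome 13 genes when no filter on level was used. The other autosomes were not ranked in these alternatives. Over all 24 tumors the chromosome 13 median had the 4th widest spread of the autosomes (SD 0.088), behind chromosomes 6 (0.15), 3 (0.125) and 1 (0.122), and within the 18 libraries it ranked 6th.

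A size rule asked which single tumors had a shift. A whole shift needed a chromosome median of at least 0.15 in size (1.11-fold) with the same sign in all but at most 2 of the 12 windows of 10 Mb that held 10 or more members, and a partial shift needed 3 neighboring windows that were all 0.15 or more in size with 1 sign. TN61K/K replicate 6 met the rule for a whole shift, with a median of 0.157, all 12 windows above 0 and 66.5% of the members above their mean. TN61K/K replicate 1 met it too, at 0.155 with 11 of 12 windows above 0 and 63.2% of the members above their mean. Just outside were TN61R/R replicate 3 at 0.139 with 11 of 12 windows and 64.7% of members, TN61H/H replicate 1 at 0.136 and TN61K/K replicate 3 at 0.136. The rule for a partial shift was met upward by TN61H/H replicate 1 over 80 to 110 Mb (window medians 0.28, 0.22 and 0.23) and by TN61K/K replicate 3 over 50 to 80 Mb (0.17, 0.41 and 0.17). It was met downward over 80 to 110 Mb by TN61L/L replicate 5 (-0.23, -0.18 and -0.18) and TN61R/R replicate 5 (-0.20, -0.16 and -0.20). TN61K/K replicate 4 and TN61L/L replicate 5 were below 0 in all 12 windows, at medians of -0.119 and -0.117. The largest of these medians, 0.157 on the log2 scale in TN61K/K replicate 6, amounts to 1.12-fold.

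The same rule applied to the other 18 autosomes gave 20 whole and 42 partial shifts among 432 pairs of tumor and chromosome, 5 and 15 of them in the 6 libraries without a separator. Chromosome 6 had 8 whole shifts and chromosome 1 had 6, against 2 on chromosome 13. When only the 18 libraries with a separator were used, no tumor had a whole shift of chromosome 13 and TN61H/H replicate 1 alone kept a partial one. The median of that tumor was then 0.162, over the size threshold, and it missed the whole rule on the signs of its windows. Without a filter on level no tumor had a whole shift either (highest median 0.061). Copy number was not measured in these libraries, and whether any tumor carried an altered chromosome 13 was not tested.

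**Figure D2:**
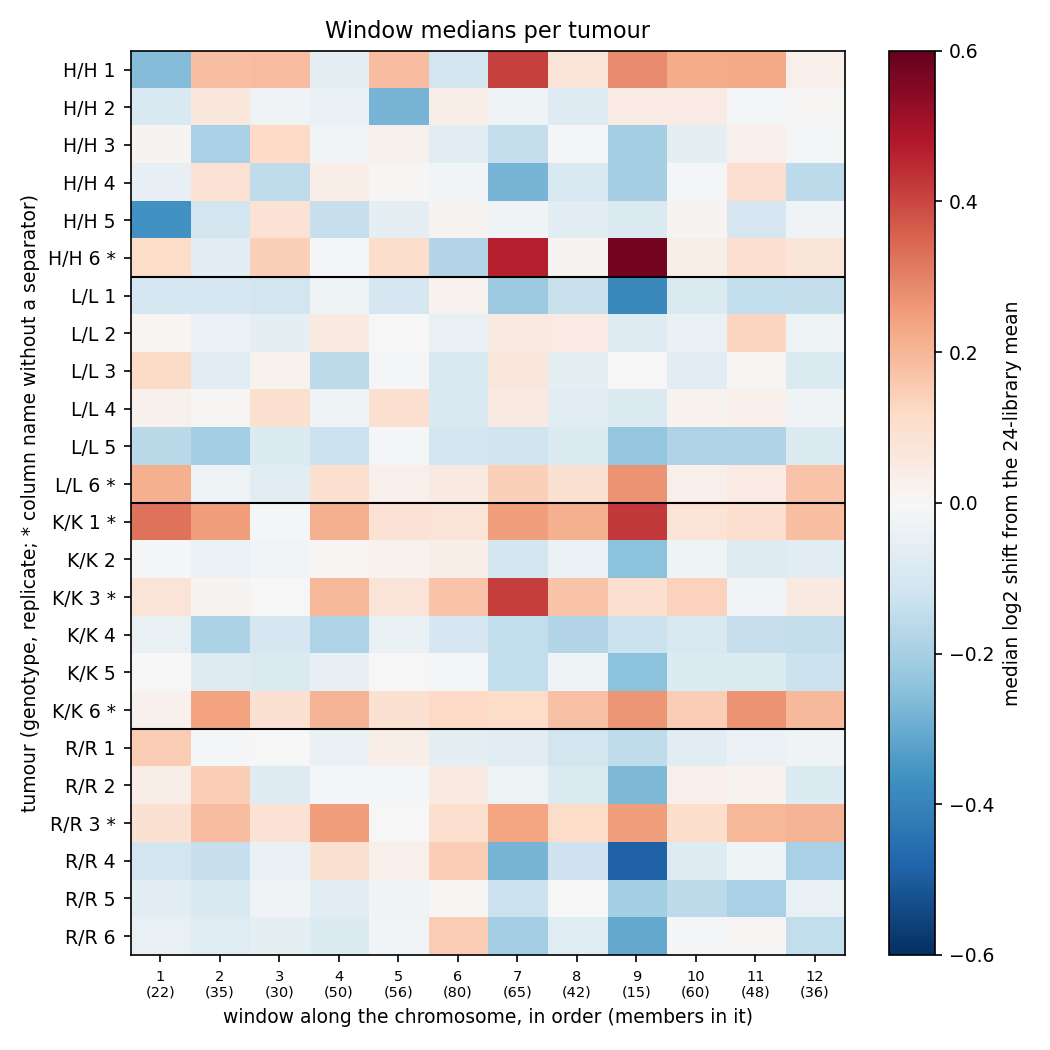
Heatmap of the median log2 shift in each of 12 windows of 10 Mb along chromosome 13 (columns in chromosome order, members per window in brackets) for each tumor (rows by genotype, asterisks for column names without a separator), red above and blue below the 24-library mean. Windows 7 and 9 hold the strongest colors in both directions, and TN61K/K replicate 6 is above 0 in all 12.

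Along the chromosome the tumors did not move evenly. The windows at 60 to 70 Mb (65 members, 28 of them zinc finger genes) and 80 to 90 Mb (15 members) had the widest spread, with an SD over the 24 tumors of 0.216 and 0.269, while the other 10 windows lay between 0.087 and 0.145. At 60 to 70 Mb the tumors ran from -0.279 in TN61H/H replicate 4 to 0.465 in TN61H/H replicate 6, and at 80 to 90 Mb from -0.483 in TN61R/R replicate 4 to 0.575 in TN61H/H replicate 6. In both windows TN61H/H replicate 6 was the highest tumor, although its chromosome median was 0.045. The median over the 6 libraries without a separator was 0.245 at 60 to 70 Mb and 0.268 at 80 to 90 Mb, against -0.113 and -0.198 over the 18 with one. The 80 to 90 Mb window holds the fewest members of the 12, so single genes weigh more in it. The 2 members beyond 120 Mb were too few for a window.

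The zinc finger genes ranged more widely than the other members. They were taken as the members whose names start with Zfp together with Rsl1 and Rslcan18, KRAB zinc finger repressors that in mouse liver restrain genes expressed more in males, 36 genes in all, a set drawn up after the values were seen. Their median shift was 0.799 in TN61H/H replicate 6, 0.548 in TN61H/H replicate 1, 0.514 in TN61K/K replicate 3, 0.369 in TN61R/R replicate 3, 0.323 in TN61K/K replicate 1, 0.234 in TN61L/L replicate 6 and 0.206 in TN61K/K replicate 6. It was at most 0.070 in the other 17 tumors, and lowest in TN61H/H replicate 4 (-0.392) and TN61R/R replicate 4 (-0.389). So the 6 libraries without a separator and TN61H/H replicate 1 were the 7 high tumors, in all 4 genotypes. The other 505 members had medians of 0.011 in TN61H/H replicate 6, 0.097 in TN61H/H replicate 1, 0.10 in TN61K/K replicate 3 and 0.155 in TN61K/K replicate 6. Zinc finger genes of the other autosomes, 300 in all, were high in both of these TN61H/H tumors (0.387 and 0.325). They were not in the other high tumors: -0.137 in TN61K/K replicate 3, 0.018 in TN61K/K replicate 1, 0.082 in TN61K/K replicate 6, 0.079 in TN61L/L replicate 6 and 0.075 in TN61R/R replicate 3. In TN61H/H replicate 5 they stood at 0.214, while its zinc finger members stood at -0.058. Reads of zinc finger genes may be shared between near-identical copies, so the values of single members are uncertain.

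**Figure D3:**
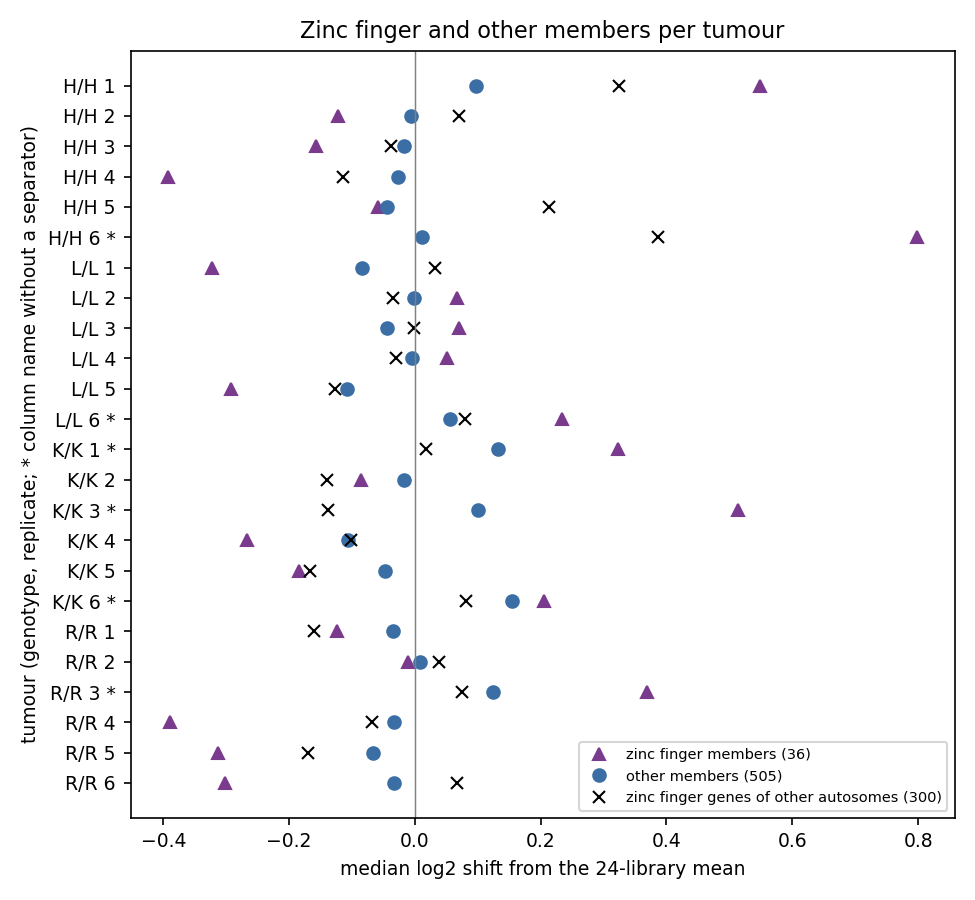
Median log2 shift (horizontal axis) of 36 zinc finger members (triangles), the 505 other members (circles) and 300 zinc finger genes of other autosomes (crosses) in each tumor (rows by genotype, asterisks for column names without a separator). The triangles reach 0.799 in TN61H/H replicate 6, whereas the circles stay between -0.107 and 0.155 in all 24 tumors.

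Chromosome 13 genes also differ from the rest of the genome in base composition. Transcripts of the members had a median GC content of 46.3%, those of the zinc finger members 39.5%, and those of the other autosomal genes 50.1%, with a value for 526, 36 and 13775 genes. In the other autosomes the decile of genes poorest in GC had a median shift of 0.166 to 0.415 in the 6 libraries without a separator and of -0.269 to 0.219 in the 18 others, the highest of these being TN61H/H replicate 1. The decile richest in GC ran the other way, from -0.288 to -0.065 in the 6 libraries and from -0.257 to 0.217 in the 18, with TN61H/H replicate 1 the lowest of the 18. Each member was therefore set against the other autosomal genes of its own GC decile in the same tumor, an alternative added after the data had been seen. The chromosome 13 median then came to 0.063 in TN61H/H replicate 1, 0.069 in TN61K/K replicate 3, 0.076 in TN61K/K replicate 6, 0.061 in TN61R/R replicate 3, 0.025 in TN61K/K replicate 1 and -0.057 in TN61H/H replicate 6. The difference between the 6 libraries and the 18 came to 0.038, the SD over the 24 tumors to 0.037, and no tumor met the rule for a whole or a partial shift. By genotype the GC-centered means were -0.01 ± 0.04 in TN61H/H, -0.01 ± 0.02 in TN61L/L, 0.02 ± 0.05 in TN61K/K and 0.01 ± 0.03 in TN61R/R (SD, n = 6 each).

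**Figure D4:**
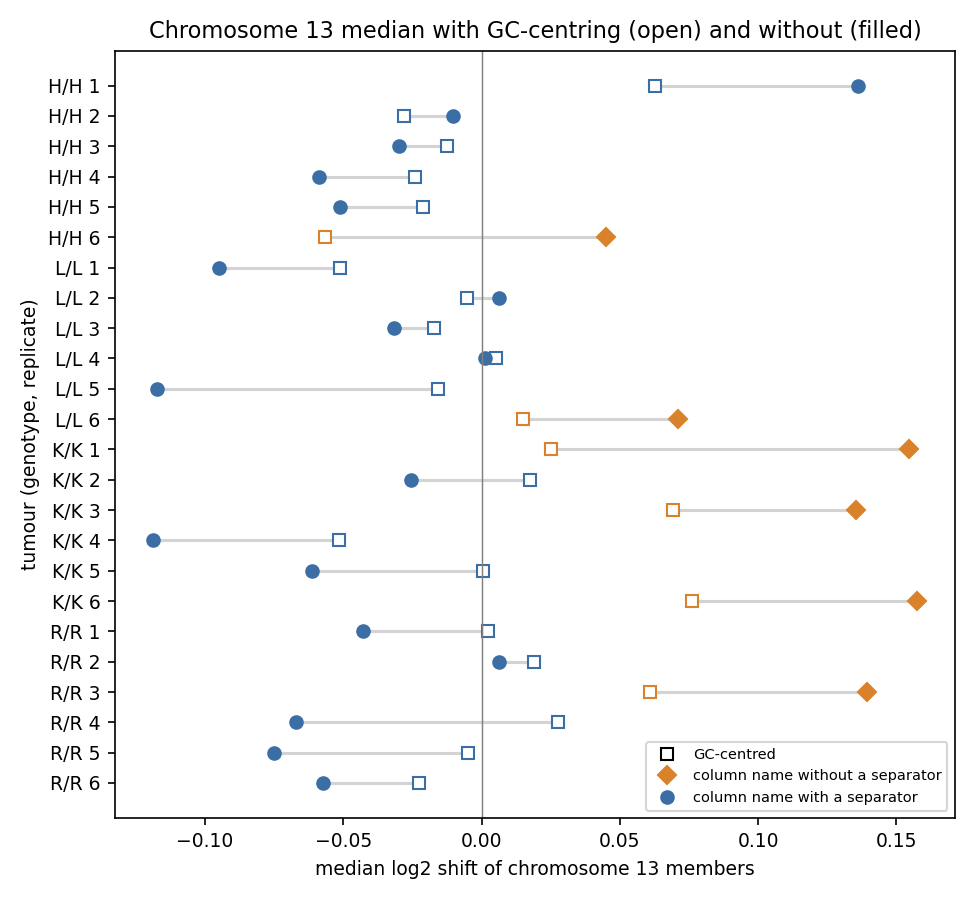
Chromosome 13 median log2 shift (horizontal axis) of each tumor (rows by genotype), as open squares after each gene was set against other autosomal genes of like GC content and as filled symbols before, in orange for column names without a separator and blue for the others. The open squares all lie between -0.057 and 0.076.

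The contrast of column name styles, with genotype in the same model, was fitted with edgeR's quasi-likelihood test across 17214 genes, of which 28.3% were called at an adjusted p under 0.05 (4873 genes, Benjamini-Hochberg). Of the 541 members 166 were called (30.7%), 136 higher and 30 lower in the 6 libraries without a separator, and the median log2 fold change was 0.12 over the members and -0.05 over all genes tested. The share of members called is near that of all genes. The split was known from earlier results, so these p-values describe the libraries and support nothing further. Members that were higher had a median GC content of 42.3% and a median exonic length of 2269.5 bases, those that were lower 48.0% and 3506 bases, and the 375 others 47.6% and 3231 bases.

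Among the genes that rose was Tbca, a tubulin folding cofactor, with a log2 fold change of 1.69 ± 0.11. Cox7c, a small subunit of cytochrome oxidase (chr13:86044798-86046795), had 71.6, 83.6 and 122 CPM as lowest, median and highest of the 6 libraries without a separator, against 29.2, 34.8 and 46.0 CPM in the 18 others, so the groups did not overlap (log2 fold change 1.29 ± 0.11 SE, edgeR adjusted p = 3.47e-08). Ndufs4 and Ndufs6, subunits of respiratory complex I, were 0.93 ± 0.11 and 0.66 ± 0.09 higher on the log2 scale. In all, 5 of 14 mitochondrial genes of the fixed list rose and none fell, Mrpl36 and Lyrm4 being the others. Of the 541 members 136 rose, and of all 17214 genes tested 2653 rose. In either direction 30.7% of the members and 28.3% of all genes were called. The median shift of the mitochondrial list was 0.16 in the 6 libraries and -0.07 in the 18.

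For the other lists too, counts of higher genes stand beside 136 higher of the 541 members and 2653 higher of all 17214 genes tested. Of 12 leukocyte genes 5 were higher in the 6 libraries without a separator: Cd83, an activation marker of dendritic cells, at 1.34 ± 0.37, Serpinb9, an inhibitor of granzyme B, at 1.17 ± 0.24, and Ly86, Cd180 and Serpinb1a. Leukocyte markers summed to a median of 986 CPM in the 6 libraries and 630 CPM in the 18, keratinocyte markers to 564 and 1685 CPM and skeletal muscle markers to 285 and 872 CPM, and their part in the result was not tested. Of 16 matrix, stroma and epidermis genes, Aspn, Ctsl and Ctla2a were higher. Of 15 cell cycle and telomerase genes, Cks2, Gmnn and Dek were higher, and of 7 DNA repair genes Xrcc4 and Rad17. Of 10 pigment genes 2 were called, and of 19 RAS, RAF, PI3K and receptor signaling genes 2, both under the 28.3% of all genes. Bloc1s5, a subunit of a complex that forms melanosomes, was 0.35 ± 0.10 higher and Lyst 0.38 lower (log2 fold change -0.38 ± 0.09). Rasa1 was 0.27 ± 0.08 higher and Rreb1, a RAS-responsive transcription factor, had a log2 fold change of -0.58 ± 0.10.

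Gpbp1 (chr13:111425680-111490041) shows the common pattern in a single gene. Its lowest, median and highest CPM were 105, 125 and 146 in the 6 libraries without a separator and 63.7, 78.9 and 111 in the 18 others. By genotype they were 74.9, 84.0 and 146 in TN61H/H, 63.7, 86.2 and 105 in TN61L/L, 73.3, 96.1 and 139 in TN61K/K, and 65.9, 78.4 and 117 in TN61R/R. The genotypes overlap, and the correlation of this gene with the chromosome median over the 18 libraries alone was 0.91. Smim15 had 97.8 to 139 CPM in the 6 libraries and 35.2 to 75.4 CPM in the 18, without overlap, and over the 18 its correlation was 0.63. Zfp429 had 7.93 to 13.5 CPM in the 6 and 3.62 to 7.38 CPM in the 18.

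Between genotypes few chromosome 13 genes differed. Of all 541 members, 4 were called between TN61H/H and TN61R/R (0.739%), against 2.02% of the 17214 genes tested, by edgeR's quasi-likelihood test with Benjamini-Hochberg adjustment. Of these, 2 rose and 2 fell in TN61H/H tumors. Between TN61L/L and TN61R/R, TN61K/K and TN61R/R, TN61H/H and TN61L/L, and TN61L/L and TN61K/K, edgeR called 0 members and 0% of all genes. At an unadjusted edgeR p under 0.05 were 25, 41, 55 and 49 members in that order, and 956, 887, 1931 and 1393 of all genes. DESeq2 called 0, 0, 0 and 1 members, and 31, 3, 56 and 42 of all genes. Between TN61H/H and TN61K/K 44 members were called (8.13%), against 9.36% of all genes. The members' shares lie near or under those of all genes in each comparison. The 6 comparisons share their samples pairwise and are not independent.

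Fgd3, a guanine nucleotide exchange factor of the FGD family (chr13:49263110-49309208), had a lowest, median and highest level of 3.91, 5.30 and 6.59 CPM in TN61H/H, 6.03, 8.36 and 10.4 CPM in TN61L/L, 8.58, 12.8 and 18.8 CPM in TN61K/K and 7.51, 10.7 and 18.4 CPM in TN61R/R. All 6 TN61H/H tumors lay below all TN61K/K and TN61R/R tumors. The log2 fold change was -1.18 ± 0.22 (SE) in TN61H/H against TN61R/R (edgeR adjusted p = 0.00938) and -1.24 ± 0.22 against TN61K/K (adjusted p = 0.00486). Dok3, an adaptor that restrains signaling in B cells and macrophages (chr13:55523235-55528538), had 3.63, 4.80 and 5.88 CPM in TN61H/H, 4.35, 6.08 and 7.40 in TN61L/L, 8.19, 8.90 and 19.1 in TN61K/K and 5.99, 9.10 and 12.6 in TN61R/R, again with no overlap between TN61H/H and either TN61K/K or TN61R/R. It fell by 0.91 on the log2 scale against TN61R/R (SE 0.21, edgeR adjusted p = 0.0298) and by 1.18 against TN61K/K (SE 0.21, adjusted p = 0.00539). Leukocyte markers summed to a median of 454 CPM in TN61H/H (362 to 735) and 770 CPM in TN61R/R (516 to 1168), and their part in the result was not tested.

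Amph, a membrane-bending protein of endocytosis (chr13:18948351-19150919), had 4.73, 20.0 and 36.5 CPM in TN61H/H, 5.28, 6.60 and 16.0 in TN61L/L, 1.56, 4.28 and 8.38 in TN61K/K and 2.99, 5.37 and 10.2 in TN61R/R. The TN61H/H range overlaps those of the other genotypes at its low end, and the gene rose by 1.79 ± 0.46 on the log2 scale against TN61R/R (edgeR adjusted p = 0.0429) and by 2.10 ± 0.46 against TN61K/K (adjusted p = 0.0097). Edil3, a secreted integrin ligand (chr13:88821472-89323225), had 4.08, 11.7 and 31.8 CPM in TN61H/H, 1.57, 3.37 and 11.3 in TN61L/L, 3.42, 6.00 and 11.9 in TN61K/K and 1.67, 3.53 and 5.71 in TN61R/R. It rose against TN61R/R only (2.06 ± 0.50, edgeR adjusted p = 0.035), and against TN61K/K its log2 fold change of 1.13 missed the threshold (adjusted p = 0.142). The count of 4 rests on single libraries. The number called over all genes, 348 in the main fit, moved too and is given in brackets. The count of members was 30 (1093) without TN61H/H replicate 4, 7 (400) without TN61R/R replicate 6 and 2 (270) without TN61H/H replicate 6. It was 1 (66 to 176) without any 1 of TN61H/H replicates 1, 2 and 5 or TN61R/R replicates 1, 2, 3 and 5. When only the 12 libraries compared were fitted it was 0 (30), and with DESeq2 it was 21 (919). In the 18 libraries with a separator it was 3 (111), with Amph not called. With TN61H/H replicates 4 and 5 summed into 1 tumor it was 5 (399), all 4 genes included.

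**Figure D5:**
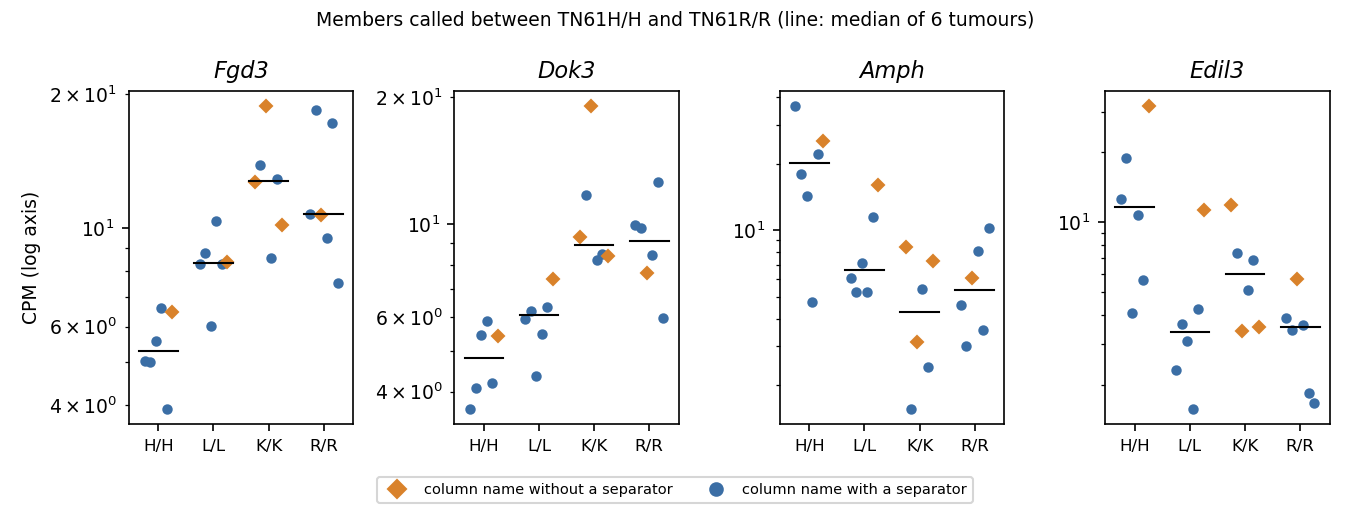
CPM on a log axis of the 4 members called between TN61H/H and TN61R/R, 1 panel a gene with its own axis, by genotype with 6 tumors each (diamonds for column names without a separator, circles for the others, line at the median). Fgd3 and Dok3 lie lower in all 6 TN61H/H tumors than in any TN61K/K or TN61R/R tumor, whereas the TN61H/H tumors spread from 4.73 to 36.5 CPM in Amph and from 4.08 to 31.8 CPM in Edil3.

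Of the 44 members called between TN61H/H and TN61K/K, 11 rose and 33 fell in TN61H/H tumors. Immune genes were among those that fell. Of 12 leukocyte genes of the fixed list 7 fell and none rose: Dok3, Serpinb9, Serpinb1a, Ly86, and Naip2, Naip5 and Naip6, sensors of bacterial proteins in the inflammasome. Naip5 had a lowest, median and highest level of 3.75, 4.63 and 6.98 CPM in TN61H/H and 6.19, 10.4 and 21.5 CPM in TN61K/K (log2 fold change -1.21 ± 0.26, edgeR adjusted p = 0.0092). Serpinb9 had 14.6, 18.9 and 23.9 CPM in TN61H/H and 14.8, 53.9 and 149 CPM in TN61K/K (-1.79 ± 0.40, adjusted p = 0.00994), and the highest of these tumors, TN61K/K replicate 3, is also the one with the most leukocyte marker RNA. The Naip genes resemble each other, as do the Serpinb genes and Ctla2a with Ctla2b, so single values are uncertain. The list's median log2 fold change was -1.25, against 0.01 over all genes tested and -0.03 over the members. Leukocyte markers summed to a median of 454 CPM in TN61H/H (362 to 735) and 986 CPM in TN61K/K (463 to 3009), and their part in the result was not tested. Serpinb9, Serpinb1a and Ly86 were also called higher in the 6 libraries without a separator, whereas Dok3 and the Naip genes were not. TN61K/K has 3 of these libraries and TN61H/H has 1. In the 18 libraries with a separator Serpinb9, Serpinb1a and Naip5 were not called (edgeR adjusted p = 0.143, 0.0734 and 0.0808).

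Other members that fell in TN61H/H against TN61K/K were Serpinb6b, a serine protease inhibitor, at -2.62 ± 0.46 (edgeR adjusted p = 0.00486), Emb, a cell adhesion protein, at -1.87 ± 0.42 and Syk, a kinase of immune receptors, at -0.98 ± 0.25. In the matrix, stroma and epidermis list 3 of 16 fell, the chemokine Cxcl14 at -2.11 ± 0.53, the small proteoglycan Ogn at -1.92 ± 0.58 and Ctla2a at -1.85 ± 0.54, and Itga2, a collagen receptor subunit, rose at 1.32 ± 0.36. Cxcl14 had 22.4, 51.0 and 139 CPM in TN61H/H and 188, 267 and 432 CPM in TN61K/K, without overlap. Gli3, a transcription factor of hedgehog signaling (chr13:15463723-15730025), had 103, 155 and 174 CPM in TN61H/H and 58.7, 84.1 and 108 CPM in TN61K/K, and rose at 0.76 ± 0.18 (edgeR adjusted p = 0.0142). Hivep1 and Jarid2, a zinc finger factor and a subunit of the polycomb machinery, rose by 0.58 ± 0.15 and 0.63 ± 0.20. Serpinb6b, Emb and Ctla2a were also called higher in the libraries without a separator, whereas Syk, Cxcl14, Ogn and the genes that rose were not. In the 18 libraries with a separator Serpinb6b and Emb were not called (edgeR adjusted p = 0.0797 and 0.06).

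The count of 44 was 2 in the 18 libraries with a separator, where Dok3 was the member shared with the 44, 17 in a fit of the 12 libraries compared, and 16 without TN61K/K replicate 3, 18 without TN61H/H replicate 5 and 20 without TN61H/H replicate 1. With the column name style as a covariate it was 40, and with TN61H/H replicates 4 and 5 summed it was 38, 34 of them among the 44. The 44 genes came from every 10 Mb window along the chromosome.

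The other lists gave no call between TN61H/H and TN61K/K in 10 pigment, 15 cell cycle and telomerase, 7 DNA repair and 14 mitochondrial genes, with median log2 fold changes of -0.17, 0.15, 0.14 and -0.06. Tfap2a had 57.7, 77.3 and 90.8 CPM in TN61H/H, 36.2, 54.2 and 72.3 in TN61L/L, 11.7, 36.3 and 79.6 in TN61K/K and 28.6, 43.8 and 94.6 in TN61R/R, with overlap between all genotypes. Irf4 had 2.05, 3.08 and 5.18 CPM in TN61H/H, 2.55, 5.55 and 19.6 in TN61L/L, 4.20, 6.73 and 24.5 in TN61K/K and 2.16, 6.58 and 9.21 in TN61R/R. Tert, at 1.5 to 5.55 CPM over the 24 tumors, was called in none of the 6 comparisons. In the RAS, RAF, PI3K and receptor signaling list Gli3 and Syk were the 2 of 19 called.

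Within the tumors that met the size rule, the members with the largest shifts included genes known from other cell types. In TN61K/K replicate 3 they were Ogn at 381 CPM (12.9 to 81.0 in the other 23 tumors), Ctla2a at 130 (4.88 to 40.0), the macrophage gene F13a1 at 1336 (55.5 to 365), Serpinb9 and Aspn. In TN61K/K replicate 1 the keratinocyte gene Calm4 stood at 158 CPM (0 to 346 in the others) and Cd83 at 59.2 (3.91 to 17.3), and in TN61K/K replicate 6 Thbs4, a matrix protein, at 101 CPM (3.70 to 127). TN61H/H replicate 1 had the muscle kinase Mylk4 at 28.0 CPM (0 to 197 in the others) and TN61L/L replicate 5 had Vcan, a matrix proteoglycan, at 272 CPM (264 to 1880 in the others). Keratinocyte markers summed to 965 CPM in TN61K/K replicate 1 and skeletal muscle markers to 1094 CPM in TN61H/H replicate 1, and the part of other cell types in these shifts was not tested. When the leukocyte and the matrix, stroma and epidermis lists were left out, neither whole shift remained (0.1496 in TN61K/K replicate 1 and 0.1288 in TN61K/K replicate 6), TN61K/K replicate 1 met the rule for a partial shift, and the difference between the 6 libraries without a separator and the 18 with one was 0.140.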

How the data were processed

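RNA of 24 melanomas was depleted of ribosomal RNA and made into stranded total RNA libraries. Per the methods and the submitters' processing notes, the authors aligned reads to mm10 with STAR, marked duplicates with Picard 2.17.11 and deposited whole-number read counts per gene from featureCounts. The strand setting, and whether marked duplicates were counted, are not given in the sources used here. Groups came from the labels. Counts were scaled by TMM in edgeR 4.0.16 (R 4.3.3, limma 3.58.1), and log2 CPM used a prior count of 2. Genotypes were compared with edgeR's quasi-likelihood test (robust, low counts filtered with filterByExpr, Benjamini-Hochberg over all genes, threshold 0.05) in 1 fit of the 24 libraries, with DESeq2 1.42.0 as an alternative. The p-values measure the spread between these tumors. The code was tested on simulated data.

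Members and lists were chosen with earlier results of these data known. Genes were named from 7 lists by role, from the largest shifts in each tumor that met the size rule, from the genes most like the chromosome median, and from called genes by adjusted p. GC content came from GENCODE M21 transcripts and promoters from RefSeq (GRCm38.p6). Alternatives changed the scaling, filter, prior count, center, threshold, window and libraries, and those on GC content, zinc finger genes and 2 TN61H/H tumors summed into 1, and some of those on column names and shifts, were added after the data had been seen.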

Additional observations from a re-analysis of the deposited data

Results flagged for a closer look

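In 7 of 172 sets of 6 tumors of a genotype, over 43 measures, the highest or lowest tumor lay apart from the other 5 by a gap of more than 0.625 of the whole range (Dixon's critical value). Chance alone gives about 1 in 20, or 8.6 sets. Of the 7 flags 5 fall in libraries without a separator in the column name, TN61K/K replicate 3 being flagged more than once. Gpbp1 and Smim15 were measured here because they follow the chromosome median, which differed between the styles. Hivep1, Kif13a and Gli3 were measured because they were called between TN61H/H and TN61K/K. TN61K/K replicate 3, flagged in Hivep1 and Kif13a, is part of that comparison, and without it Kif13a lost its call and Hivep1 kept it. TN61K/K replicate 1 was high in the 0 to 10 Mb window (median shift 0.325, the other TN61K/K tumors -0.045 to 0.0773, gap over range 0.6695). TN61K/K replicate 3 was low in Hivep1 (log2 CPM 6.33, the others 7.14 to 7.28, ratio 0.8496) and in Kif13a, a kinesin of melanosome transport (5.91, the others 6.35 to 6.57, ratio 0.6736). TN61R/R replicate 3 was high in Gpbp1 (6.87, the others 6.04 to 6.33, ratio 0.6483), and TN61H/H replicate 6 was high in Smim15 (6.61, the others 5.89 to 6.02, ratio 0.8152). Among TN61L/L tumors, replicate 5 was low in Gli3 (6.47, the others 6.68 to 6.81, ratio 0.6307) and replicate 1 was low in Dsp, a desmosome protein of epidermis (-1.38, the others 8.41 to 10.47, ratio 0.8262).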

How the results depend on the processing

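Among the genes followed across the alternatives, no log2 fold change changed sign. These were the members called between genotypes with the lowest adjusted p in each direction, picked from the same data, so a kept sign was likely from the start. Other named genes, such as Cxcl14, Ogn and Syk and those named for the column name style, were not followed. Genotype means of the chromosome 13 median stayed within 1 SD, but lie near 0 and changed sign in 7 of 13 settings: TN61H/H with DESeq2 size factors, off-chromosome centering, the trimmed mean, no filter and GC-centering, TN61K/K with no filter (-0.02) and in the 18 libraries (-0.04), and TN61R/R with the median as center and GC-centering. Single tumors changed sign too, among them TN61H/H replicate 6 at -0.057 after GC-centering and TN61K/K replicate 3 at -0.02 with no filter. The 2 whole shifts were 1 with DESeq2 size factors, with the median of the libraries as center, with the trimmed mean and without zinc finger members, 6 at a threshold of 0.1, and 0 at 0.2, after GC-centering, with no filter, without the leukocyte and matrix lists and in the 18 libraries with a separator. The 4 partial shifts were 2 with a CPM of at least 10 in all libraries and at a threshold of 0.2, 1 with 5 Mb windows and in the 18 libraries, and 0 after GC-centering. The tumors themselves can differ where the count does not: with a CPM of at least 10, TN61L/L replicate 5 and TN61K/K replicate 6 met the whole rule. The difference between column name styles was 0.0382 after GC-centering and 0.0679 with no filter. Calls among members are given with those over all genes in brackets. Between TN61H/H and TN61R/R they were 11 (683) with the style as a covariate, 0 (30) in a fit of 12 libraries and 21 (919) with DESeq2. With each library left out they were 1 to 30 (66 to 1093). Between TN61H/H and TN61K/K they were 2 (168) in the 18 libraries, 17 (447) in a fit of 12 and 16 to 60 (559 to 2310) with each library left out. Between TN61L/L and TN61K/K there was 1 (42) with DESeq2. The style called 52 members (1495) in TN61K/K libraries only. Of the values of the single genes and tumors that were followed, 85 lost their call, 9 moved by more than the spread and 393 did neither. The cause of these changes was not tested. No paired analysis was possible because the replicate numbers were given in accession order and pair no tumors. With the letter in the titles, which ties TN61R/R tumors to cohorts, as a covariate, TN61L/L and TN61K/K against TN61R/R gave 0 members called. Shifts of this size rest on medians over many genes, and windows with few members are less precise.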

Other observations

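The Hist1 genes that were left out, replication-dependent histones whose mRNA lacks a poly(A) tail, varied far more than the members. Their summed level was 1825 to 2939 CPM (median 2162) in the 6 libraries without a separator and 577 to 4369 CPM (median 1796) in the 18 with one, and their median shift ran from -0.07 to 0.67 in the 6 and from -1.96 to 1.30 in the 18.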
